A study of Mus musculus with 4 samples.

Results

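Gm42418, Lars2, Cmss1, Gm47283 and Il31ra were the 5 genes with the lowest ratio of the risperidone pool to the saline pool among 7518 genes of the adult mouse cortex with a mean of at least 10 CPM (UMIs of the gene in 1000000 UMIs of the lane). They were found by symbol in the deposited tables, where each had 1 of the 32285 rows, so 5 of 5 members are described here. A UMI, or unique molecular identifier, counts 1 captured RNA molecule. The members were chosen from this same contrast, so their ratios are a description of 2 pools and not a test.

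The data are single-nucleus RNA sequencing (snRNA-seq) of the cortex of wild-type C57BL/6J mice. Risperidone, an antipsychotic that blocks dopamine and serotonin receptors, was injected intraperitoneally once a day at 4 mg/kg from postnatal day 22 for 21 days, the control mice received saline, and all mice were euthanized at postnatal day 90 after a washout without drug. For each condition, right hemicortices from 5 males and 5 females formed 1 pool, and DAPI-sorted nuclei of that pool were run on 2 Chromium lanes. These 2 lanes are technical repeats, so n = 1 pool per condition, mice cannot be told apart except by sex, and neither p-values nor standard errors are given. Anything that differed between the 2 nuclei preparations cannot be told apart from the treatment. In sums over nuclei, fewer nuclei of a type and less RNA per nucleus cannot be told apart either.

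The members have little in common by their known roles. Gm42418 is a long non-coding RNA (lncRNA) gene that lies in a partial copy of the ribosomal DNA unit, from which RNA polymerase I makes the long precursor of the 18S, 5.8S and 28S ribosomal RNAs (pre-rRNA) in the nucleolus. Lars2 encodes the leucyl-tRNA synthetase of the mitochondrion, the enzyme that loads leucine on its tRNA for translation of the proteins encoded by mitochondrial DNA. Cmss1 is the mouse homologue of a yeast protein of the small ribosomal subunit processome, the complex that cuts and folds pre-rRNA. Il31ra encodes the receptor chain that binds interleukin-31 together with the oncostatin M receptor, and is known from immune cells and from sensory neurons that signal itch. Gm47283 carries the symbol of a predicted gene, is annotated as protein-coding and lies at the end of the Y chromosome that pairs with the X. Its function is not described here.

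In the GENCODE vM21 annotation of GRCm38, the build the authors used, Gm42418 (ENSMUSG00000098178) has a single exon of 1831 bases on the plus strand of chromosome 17, from 39846958 to 39848788. The annotation places a gene of type rRNA, CT010467.1, on the minus strand across the same bases, from 39846353 to 39848827. Lars2 (ENSMUSG00000035202) spans 95740 bases of the plus strand of chromosome 9, from 123366927 to 123462666. Cmss1 (ENSMUSG00000022748) spans 304865 bases of the minus strand of chromosome 16, from 57302000 to 57606864, and its exons cover only 1997 bases of these. Il31ra (ENSMUSG00000050377) spans 74463 bases of the minus strand of chromosome 13, from 112519898 to 112594360. Gm47283 (ENSMUSG00000096768) spans 31727 bases of the plus strand of chromosome Y, from 90784738 to 90816464. The authors assigned intronic reads to their gene, so a UMI of the long genes may come from any part of these spans.

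The Gm42418 transcript is shown around the end of its 18S part. Among the annotated transcripts of the members, it alone shared words of 20 bases with the rRNA gene CT010467.1. The stretch of 150 bases is chr17:39848123-39848272 on the plus strand of GRCm38. The capitals mark GGATCAT, which occurs once in the transcript, near the end of the 18S sequence and shortly before the first internal transcribed spacer.
Gm42418: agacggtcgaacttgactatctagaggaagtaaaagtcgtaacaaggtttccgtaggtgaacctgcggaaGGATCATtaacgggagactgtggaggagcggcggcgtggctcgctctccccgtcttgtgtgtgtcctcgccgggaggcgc
The capitals end at base 1242 of the transcript and leave 589 bases after them. AY036118, an annotated lncRNA of 923 bases on the opposite strand inside Gm42418, covers 39847113 to 39848035, before the stretch shown. It matches the reverse complement of the Gm42418 transcript there at 923 of 923 positions, which follows from its annotation on the same bases. No word of 20 bases was shared, on either strand, between the annotated transcripts of Gm42418 and those of Lars2, Cmss1, Gm47283 or Il31ra, nor between any of these 4. Introns were not searched here.

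Promoter sequences were found in the RefSeq table of GRCm38.p6 for 3 of the 5 members, and the 250 bases before the annotated start are printed to show how far these 3 genes, each on a chromosome of its own, share common promoter motifs. Capitals mark matches, on either strand, to the GC box GGGCGG. The other motifs searched were the TATA box TATAAA, the CCAAT box CCAAT, the E box CACGTG and the NRF1 letters GCGCATG.
Lars2, chr9:123366677-123366926, plus strand: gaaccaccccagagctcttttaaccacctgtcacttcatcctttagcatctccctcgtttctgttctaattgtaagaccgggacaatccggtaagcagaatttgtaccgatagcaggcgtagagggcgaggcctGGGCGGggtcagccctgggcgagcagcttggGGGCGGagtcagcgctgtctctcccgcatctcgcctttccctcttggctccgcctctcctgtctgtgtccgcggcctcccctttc
Cmss1, chr16:57606868-57607117, minus strand: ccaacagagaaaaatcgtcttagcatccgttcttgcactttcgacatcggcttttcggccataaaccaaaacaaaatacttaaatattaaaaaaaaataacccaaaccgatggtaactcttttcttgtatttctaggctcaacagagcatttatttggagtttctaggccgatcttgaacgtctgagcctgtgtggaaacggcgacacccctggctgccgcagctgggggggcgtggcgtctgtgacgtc
Il31ra, chr13:112580663-112580912, minus strand: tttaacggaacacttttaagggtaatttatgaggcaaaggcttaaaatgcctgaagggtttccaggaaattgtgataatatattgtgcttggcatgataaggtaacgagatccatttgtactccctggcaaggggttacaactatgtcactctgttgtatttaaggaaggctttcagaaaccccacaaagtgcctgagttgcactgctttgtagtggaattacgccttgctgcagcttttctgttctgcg
Lars2 had 15 CG dinucleotides in this window and Cmss1 had 14, against a median of 6 over 32851 promoters. Il31ra had 4. Positions before the start refer to the RefSeq start, which for Il31ra lies within the GENCODE span. The GC box was found at 116 and 85 bases before the start of Lars2 and in neither of the other promoters, and 32.7% of all promoters hold it. No match to the other 4 motifs was found in these 3 windows, and 12.4% of all promoters hold the TATA letters, 33.8% the CCAAT letters, 6.02% the E box and 3.24% the NRF1 letters. The 3 windows thus shared none of the 5 motifs.

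After 500 or more genes per nucleus and no more than 5% mitochondrial UMIs were required, 29533 and 29981 saline and 25696 and 23283 risperidone nuclei were used, 108493 in all. Totals per lane ran from 119731088 to 203573279 UMIs, so counting error is small for every member but Il31ra. A median listed nucleus held 3297 and 4049 UMIs in saline and 5648 and 7765.5 in risperidone, and the lowest held 1364 and 1630 against 500 and 500. Nuclei under 1364 UMIs are thus listed for the risperidone lanes alone, which bears on the medians, on the bin under 2000 UMIs and on the classes of shallow nuclei. The methods give default Cell Ranger settings for all lanes. Other transcripts differed between the pools too. The sum of the 13 mitochondrial mt- genes was 405 and 387 CPM in saline and 184 and 162 CPM in risperidone, Malat1, a nuclear lncRNA, was 21062 and 21239 against 34110 and 32604 CPM, and the 4 haemoglobin genes together were 0.451 and 0.561 against 1.33 and 1.58 CPM. Their part in the members' values was not tested. Any 2 lanes shared between 160 and 221 cell barcodes.

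Gm42418 had the highest count of the members. It stood at 6037 and 5701 CPM in saline lanes 1 and 2 and at 1281 and 1339 CPM in risperidone lanes 1 and 2, and lane values are given in this order throughout. The lanes of a pool differed far less than the pools, and every risperidone lane lay below every saline lane. Scaled by TMM factors, the log2 ratio of risperidone to saline was -2.27 (interval -2.28 to -2.27), which is 4.83-fold lower. All intervals of ratios given here are exact conditional binomial intervals at 95% confidence and cover counting error only.

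Cmss1 stood at 1001 and 889 CPM in saline and 268 and 278 CPM in risperidone, a log2 ratio of -1.89 (-1.90 to -1.88). Gm47283 stood at 421 and 411 CPM in saline and 116 and 113 CPM in risperidone, a log2 ratio of -1.97 (-1.99 to -1.96). Lars2 stood at 249 and 224 CPM in saline and 55.8 and 59.6 CPM in risperidone, a log2 ratio of -2.14 (-2.16 to -2.12). In these 3 genes too the pools did not overlap, with 3.72-fold, 3.93-fold and 4.40-fold lower levels in risperidone. These CPM values have no correction for gene length, so they are compared here between lanes and not between genes.

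Il31ra had the widest gap. It counted 3324 and 3648 UMIs in saline, or 27.8 and 24.7 CPM, and 537 and 740 UMIs in risperidone, or 3.19 and 3.64 CPM. The log2 ratio was -3.04 (-3.13 to -2.95), which is 8.21-fold lower. The risperidone lanes alone are below the minimum of 10 CPM, so Il31ra passed it through its saline level.

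All 5 members met the rule for a lower gene, a log2 ratio of -0.5 or less with both risperidone lanes below both saline lanes. The same rule called 591 of the 7518 genes, or 7.86%, lower and 228, or 3.03%, higher, and 52.5% had both risperidone lanes below both saline lanes. This balance depends on the scaling, since without TMM factors 281 genes were called lower and 481 higher, and the lower genes went from 72.2% to 36.9% of the calls. The median log2 ratio of all tested genes was -0.05. The members took ranks 1 to 5 from the lowest. The next genes, named after their values were seen, were Gm15564 at -1.71 and Taco1 at -1.63, a factor for the translation of mitochondrial COX1, followed by the mitochondrial transcript mt-Atp6 at -1.62. Of the first 15 genes in this order, 6 were mitochondrial transcripts and 2 were the lncRNAs of the Gm42418 locus described further on.

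**Figure D1:**
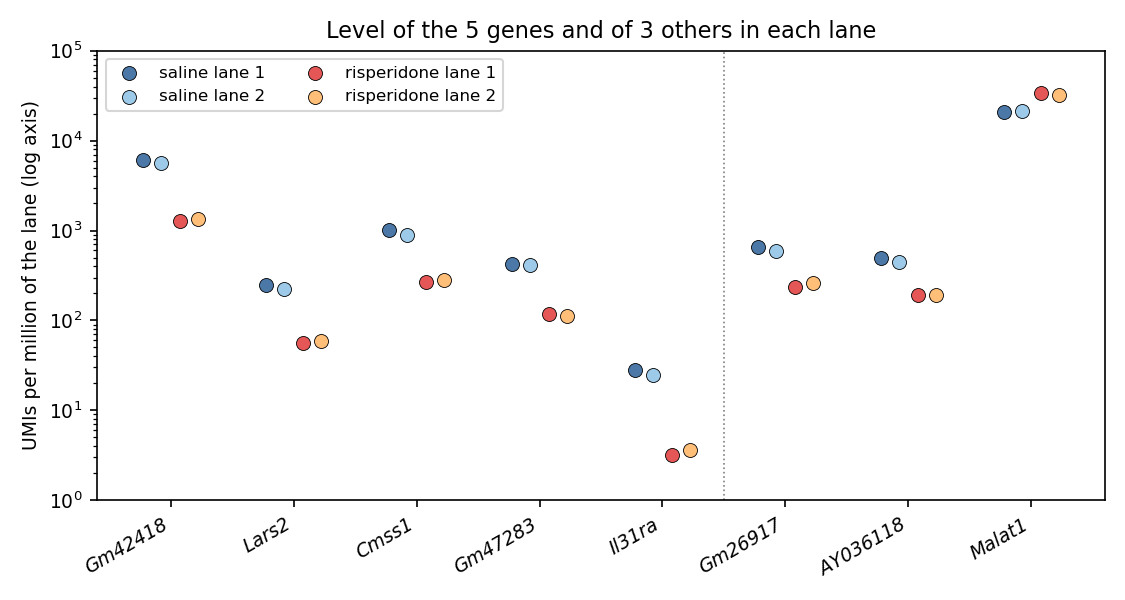
CPM in each of the 4 lanes, on a log axis, for the 5 members and, right of the dotted line, for Gm26917, AY036118 and Malat1; each point is 1 lane. For every member both saline points lie above both risperidone points, from 6037 and 5701 against 1281 and 1339 for Gm42418 to 27.8 and 24.7 against 3.19 and 3.64 for Il31ra, while Malat1 lies the other way.

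The difference was seen in the median nucleus as well as in the sums. It held 21 and 25 UMIs of Gm42418 in saline and 7 and 10 in risperidone, although risperidone nuclei held more UMIs in all. For Cmss1 the medians were 3 and 4 against 1 and 2. A mean nucleus held 1.01 and 1.11 UMIs of Lars2 in saline and 0.366 and 0.521 in risperidone. The mean for Gm47283 was 1.71 and 2.03 against 0.763 and 0.988.

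Nearly every nucleus had a UMI of Gm42418, with shares of 100% and 100% in saline and 99.5% and 99.9% in risperidone. To compare shares across the unequal depths, each nucleus was thinned to 1500 UMIs, which left out 1389 and 0 saline and 1679 and 1052 risperidone nuclei with fewer. The thinned share with a Gm42418 UMI was then 99.9% and 99.9% in saline and 84.0% and 85.6% in risperidone. Thinned shares for Lars2 were 33.2% (exact binomial interval 32.7 to 33.8) and 30.7% (30.2 to 31.2) in saline and 8.41% (8.06 to 8.76) and 9.36% (8.98 to 9.75) in risperidone, from 59.0%, 61.9%, 28.8% and 37.9% unthinned. The shares of the pools did not overlap in any of these.

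Of Cmss1 the thinned shares were 77.4% and 73.8% in saline and 34.6% and 35.5% in risperidone. For Gm47283 they were 44.1% and 43.5% against 15.8% and 15.7%. Il31ra had a UMI in 4.38% and 4.17% of thinned saline nuclei and in 0.487% (0.403 to 0.584) and 0.607% (0.509 to 0.718) of thinned risperidone nuclei. Unthinned, they were 10.4% and 11.2% in saline and 2.05% and 3.07% in risperidone. Every cell class of the saline pool had such nuclei, with thinned shares from 3.74% (3.52 to 3.96) in glutamatergic and 4.29% (3.56 to 5.11) in astrocyte nuclei, whose median depths were 4964 and 2207 UMIs, to 9.77% (5.31 to 16.1) in 133 endothelial and 11.8% (4.44 to 23.9) in 51 microglial nuclei. Free RNA in a droplet can give sparse UMIs in any class, and no class of the saline pool was free of them to serve as a background, so RNA of the nucleus itself and free RNA were not told apart.

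The level of 4 members depended on the depth of the nucleus. The share of a nucleus's UMIs taken by Gm42418, Lars2, Cmss1 and Il31ra fell as the nucleus's total rose, in every lane. In saline lane 1 Gm42418 went from 9479 CPM in nuclei under 2000 UMIs to 6231 CPM at 3000 to 5000 UMIs and 3756 CPM at 20000 UMIs or more. The same bins of risperidone lane 1 held 3962, 1490 and 911 CPM. From the bin of 2000 to 3000 UMIs to that of 10000 to 20000 UMIs the mean total rose 5.03-fold to 5.31-fold, whereas the UMIs of Gm42418 per nucleus rose 2.02-fold to 2.83-fold, those of Lars2 2.55-fold to 2.97-fold, those of Cmss1 2.24-fold to 2.75-fold and those of Il31ra 2.07-fold to 2.90-fold.

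Gm47283 did not follow this pattern. Its UMIs per nucleus rose 4.45-fold to 4.94-fold between the same bins, close to the total, and its level stayed between 384 and 469 CPM over all 6 bins of the saline lanes and between 108 and 129 CPM over those of the risperidone lanes. Summed mitochondrial UMIs per nucleus rose 2.74-fold and 2.25-fold in saline and 1.76-fold and 1.02-fold in risperidone.

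**Figure D2:**
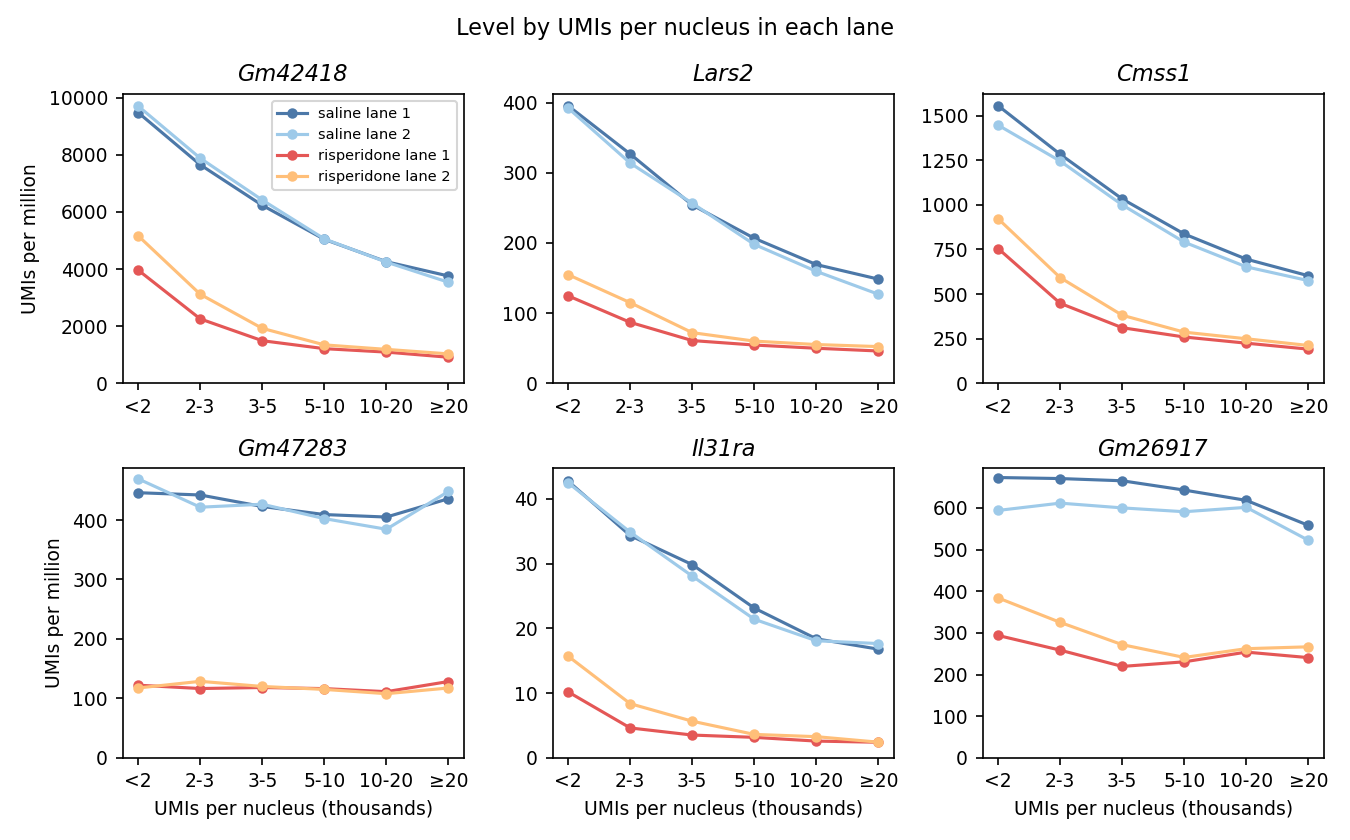
CPM of each member and of Gm26917 (vertical axis) in bins of total UMIs per nucleus (horizontal axis); each line is 1 lane. The lines of Gm42418, Lars2, Cmss1 and Il31ra fall from left to right in all 4 lanes, those of Gm47283 stay flat, and in every bin both risperidone lines lie below both saline lines.

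Compared within bins of depth, the members were still lower in the risperidone lanes. In nuclei of 3000 to 5000 UMIs, where a saline nucleus held 3904 UMIs on average and a risperidone nucleus 4086, the log2 ratio on plain CPM was -1.96 for Gm42418, -1.99 for Lars2, -1.61 for Cmss1, -1.84 for Gm47283 and -2.79 for Il31ra. Mitochondrial UMIs were at -1.04 and Malat1 at 0.58 in this bin. In nuclei under 2000 UMIs, where the bin mean was 1716 UMIs in saline and 1319 in risperidone, the ratios were less negative for 4 members, at -1.10 for Gm42418, -1.53 for Lars2, -0.89 for Cmss1 and -1.78 for Il31ra, and Gm47283 stood at -1.92. Mitochondrial UMIs were at 0.71 in that bin, in which the pools differ in depth and nuclei under 1364 UMIs are from risperidone alone, at -0.07 in nuclei of 2000 to 3000 UMIs, and at -1.07, -1.004 and -1.35 in the bins from 5000 UMIs up. In these deeper bins Lars2 was at -1.82, -1.61 and -1.42, the last less negative than its value under 2000 UMIs. Gm42418 was there at -1.98, -1.88 and -1.87, Cmss1 at -1.57, -1.47 and -1.51, and Gm47283 at -1.81, -1.84 and -1.87. Il31ra was at -2.71, -2.58 and -2.84.

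Cell classes were set by marker UMIs and held between 58 and 28736 nuclei of the saline pool and between 171 and 29967 of the risperidone pool. Each of the 7 marker lists had its highest summed level in its own class in all 4 lanes, with every marker of the list detected there. The classes were set by these same lists, so this is no independent check of the class names. Summed markers of striatal neurons were found in all 7 classes too, at 2465 and 2413 CPM in saline and 1724 and 1744 CPM in risperidone in glutamatergic nuclei, and both risperidone lanes were below both saline lanes in each class. Over all nuclei the astrocyte markers were at 1184 and 1207 against 944 and 900 CPM and the oligodendrocyte markers at 542 and 532 against 402 and 383 CPM. The part of these differences in the members' values was not tested. Of the nuclei used, 20510 saline and 8403 risperidone nuclei held too few markers for any class.

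Each member was lower in risperidone in 7 of 7 classes, and in each of these the lanes of the pools did not overlap. The classes are parts of the nuclei on which the members were chosen, so these counts are a description and no further support. In every class but endothelial, Il31ra was under 10 CPM in both risperidone lanes and passed the minimum through its saline level. The background of the same rule was 8.08% in glutamatergic, 6.35% in GABAergic, 5.40% in astrocyte, 10.6% in oligodendrocyte, 8.04% in oligodendrocyte precursor, 14.2% in microglia and 13% in endothelial nuclei. In glutamatergic nuclei Gm42418 was at 5338 and 5129 CPM in saline and 1140.3 and 1205 CPM in risperidone, and in astrocytes, which support synapses and clear glutamate, it was at 7928 and 7695 against 2642 and 2590.2 CPM. The corresponding log2 ratios were -2.26 (-2.27 to -2.25) and -1.68 (-1.70 to -1.66). In endothelial nuclei of the vessel wall Gm42418 was at 9227 and 8485 against 4299 and 4897 CPM, and the log2 ratio of -0.98 (-1.06 to -0.91) was the least negative of the 7.

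Lars2 ranged from -2.21 (-2.37 to -2.06) in oligodendrocytes, the myelinating cells, to -1.09 (-1.68 to -0.51) in microglia, where it rested on 56 and 47 UMIs. Cmss1 ranged from -1.85 in glutamatergic to -0.82 in endothelial nuclei. The least negative values of Gm42418, Lars2 and Cmss1 were thus in the 2 classes with the fewest nuclei, whose median depth was 2434.5 and 2269 UMIs in saline and 944 and 1196 in risperidone. These classes also differed in marker content, with microglial markers at 2871 and 1850 CPM in saline and 3854 and 5572 CPM in risperidone microglia, and mural and fibroblast markers at 304 and 315 against 682 and 842 CPM in endothelial nuclei. The part of depth and of marker content in these values was not tested.

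Gm47283 varied less, from -2.15 in oligodendrocytes to -1.61 in oligodendrocyte precursors, and stood at -2.14 (-2.73 to -1.57) in microglia. Il31ra was at -2.99 in glutamatergic, -3.05 in GABAergic, -2.43 in astrocyte and -2.79 in oligodendrocyte nuclei. In oligodendrocyte precursors Il31ra counted 56 and 4 UMIs, a log2 ratio of -4.22 (-6.14 to -2.78). Microglia held 13 UMIs of Il31ra in the saline pool and 0 in the risperidone pool, and the upper bound of its interval was -2.45.

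Among the GABAergic nuclei, 305 saline and 434 risperidone nuclei with Pvalb-type markers (PV) gave log2 ratios of -1.92 for Gm42418, -1.79 for Lars2, -1.61 for Cmss1, -1.85 for Gm47283 and -2.29 for Il31ra. In the same order, 96 and 125 Sst nuclei gave -1.92, -2.20, -1.80 and -1.98, with 14 and 2 UMIs of Il31ra, and 299 and 545 Lamp5 nuclei gave -1.85, -2.02, -1.58, -2.02 and -3.16. The background of the rule was 10.2% in PV, 11.5% in Sst and 9.08% in Lamp5 nuclei. The interneuron groups lay within the range of the 7 classes for all members but Il31ra, whose PV value of -2.29 (-3.20 to -1.45) lay just above the endothelial -2.34.

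**Figure D3:**
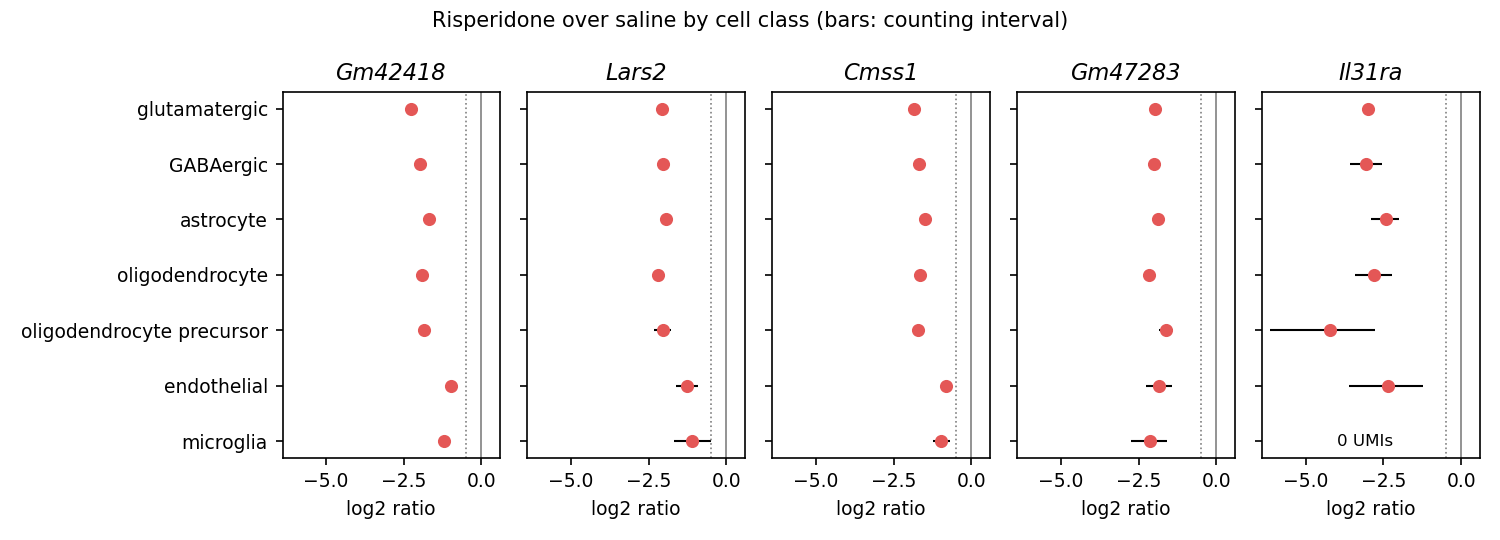
Log2 ratio of risperidone to saline (horizontal axis) for each member in the 7 cell classes; points are pool ratios, bars their exact counting intervals at 95% confidence, the solid line marks 0 and the dotted line -0.5. All points lie left of the dotted line, and Il31ra in microglia has no point because its risperidone count is 0.

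With nuclei of 3000 to 6000 UMIs alone, 5 classes held at least 50 nuclei per pool, and Gm42418 ranged over them from -2.23 in glutamatergic to -1.67 in astrocyte nuclei. In this band Lars2 ranged from -2.29 to -1.91, Cmss1 from -1.85 to -1.35, Gm47283 from -2.06 to -1.39 and Il31ra from -3.27 to -2.65. All 25 values were below -1, but some rested on few UMIs. In oligodendrocyte precursors Il31ra was at -2.65 (-5.03 to -0.90) on 21 and 3 UMIs and Gm47283 at -1.39 (-1.82 to -0.99). Both intervals reach above -1. Il31ra in astrocytes rested on 71 and 6 UMIs. The counting interval of Gm42418 was -1.72 to -1.62 in astrocytes and -2.24 to -2.21 in glutamatergic nuclei, and that of Cmss1 was -1.47 to -1.23 and -1.88 to -1.82. With 1 pool per condition, a difference between classes was not tested.

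The levels of classes within a lane were also compared with those of all nuclei in the same bins of depth. The UMIs of each class were set against those expected if its nuclei had the mean rate of all nuclei of the same lane and depth bin. In glutamatergic nuclei, which were 28736 of 59514 saline and 29967 of 48979 risperidone nuclei and so weigh heavily in the expectation, this quotient was between 0.949 and 1.02 for every member and lane. Endothelial nuclei were above 1 in every lane for 4 members, with 1.23, 1.23, 1.81 and 1.68 for Gm42418, 1.48, 1.46, 1.89 and 2.02 for Lars2, and 1.77, 1.63, 2.42 and 2.14 for Cmss1, in the order saline lane 1, saline lane 2, risperidone lane 1 and risperidone lane 2. In the same nuclei Il31ra was at 1.61, 2.81, 3.45 and 1.28, on only 10, 19, 5 and 4 UMIs, and Gm47283 was at 0.930, 0.996, 1.18 and 0.933. The bin under 2000 UMIs is open below, and the risperidone medians of 1196 UMIs in endothelial and 944 in microglial nuclei lie under that bin's mean of 1319, so depth is not matched in the risperidone quotients of these classes. Microglia were between 1.13 and 1.32 for Gm42418, between 1.21 and 1.38 for Cmss1 and between 1.12 and 2.04 for Lars2, the last on 19 to 35 UMIs a lane. In microglia Gm47283 was at 1.30, 1.17, 1.17 and 0.906, and Il31ra had only 2, 11, 0 and 0 UMIs. Astrocytes had less Gm47283 than other nuclei of their depth, with 0.785, 0.784, 0.880 and 0.809. GABAergic nuclei, like endothelial nuclei, were above 1 in every lane for Gm42418, Lars2, Cmss1 and Il31ra. Their quotients lay between 1.03 and 1.17 for Gm42418, 1.04 and 1.17 for Lars2, 1.10 and 1.18 for Cmss1 and 1.10 and 1.31 for Il31ra. For Gm47283 they lay between 0.881 and 0.973. Oligodendrocytes too were above 1 in every lane for Gm42418, at 1.05 to 1.13, and for Cmss1, at 1.05 to 1.10. So were astrocytes for Gm42418 and Lars2, and oligodendrocyte precursors for Cmss1.

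The proportion of each member to Gm42418 varied less across classes for Lars2 and Cmss1 than for Gm47283. It varied 1.24-fold to 1.61-fold within a lane for Lars2 and 1.29-fold to 1.45-fold for Cmss1. For 100 UMIs of Gm42418, saline lane 1 held between 4.06 and 5.02 UMIs of Lars2 and between 16.4 and 23.9 of Cmss1 over the 7 classes, and risperidone lane 1, the widest for Lars2, held between 3.44 and 5.53 and between 18.5 and 26.5. Over all nuclei the proportion for Cmss1 was 16.6 and 15.6 in saline and 20.9 and 20.8 in risperidone. Il31ra went from 0.460 and 0.433 to 0.249 and 0.271 per 100. Gm47283 varied 1.84-fold to 4.29-fold between classes of a lane, from 4.32 in astrocytes to 7.96 in glutamatergic nuclei of saline lane 1 and from 2.22 in endothelial to 9.53 in glutamatergic nuclei of risperidone lane 2.

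The ribosomal locus holds 2 further lncRNA genes, and both were lower in the risperidone pool. Gm26917 lies 617 bases before Gm42418 on the same strand, from 39843013 to 39846341, in the part of the unit that precedes it. It stood at 652 and 595 CPM in saline and 237 and 257 CPM in risperidone, a log2 ratio of -1.44 (-1.45 to -1.42). AY036118, on the opposite strand within Gm42418, stood at 491 and 442 CPM against 190.0 and 192 CPM, a log2 ratio of -1.39 (-1.41 to -1.38). Over all nuclei neither interval overlapped that of Gm42418, so the sums of the 3 genes were not lower in equal proportion in these 2 pools. This did not hold in every class. In endothelial nuclei Gm42418 was at -0.98 (-1.06 to -0.91), Gm26917 at -1.15 (-1.47 to -0.83) and AY036118 at -0.96 (-1.21 to -0.72). In microglia they were at -1.20 (-1.31 to -1.08), -1.43 (-1.87 to -0.997) and -0.44 (-0.83 to -0.05). There the interval of Gm26917 overlapped that of Gm42418, whereas that of AY036118 did not. AY036118 was not called lower in microglia.

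They also differed in their relation to depth. Gm26917 rose 4.28-fold to 5.08-fold per nucleus between the bins of 2000 to 3000 and 10000 to 20000 UMIs, nearly as the total and as Gm47283 did, whereas AY036118 rose 2.02-fold and 1.93-fold in saline and 2.81-fold and 2.48-fold in risperidone. Gm42418 rose 2.83-fold and 2.71-fold in saline and 2.50-fold and 2.02-fold in risperidone, so AY036118 rose less than Gm42418 in both saline lanes and more in both risperidone lanes. Reads of overlapping genes on opposite strands are told apart by strand alone, so the values of Gm42418 and AY036118 depend on how completely the library keeps it.

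Most genes beside the other members were under 10 CPM, so the rule could call only Il6st, Col8a1 and Filip1l among those described here, and it called none of them lower. Limd1, which starts 16040 bases after Lars2 on the same strand, counted 2156 and 3216 UMIs in the saline and risperidone pools, a log2 ratio of -0.01 (-0.09 to 0.07). Il6st, the signalling chain gp130 of interleukin-6 type receptors, lies 9812 bases from Il31ra and was at 13.5 and 13.2 CPM in saline and 16.2 and 16.2 CPM in risperidone, a log2 ratio of 0.17 (0.11 to 0.23). Ddx4, an RNA helicase of germ cells on the other side of Il31ra, was at 0.11 (-0.01 to 0.23). Gm21860, the next gene before Gm47283, was at 1.15 and 1.17 against 1.73 and 1.59 CPM, a log2 ratio of 0.39 (0.20 to 0.60).

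Cmss1 holds other genes within its long introns. Filip1l, which overlaps Cmss1 on the opposite strand, was at 31.4 and 29.2 CPM in saline and 24.2 and 23.7 CPM in risperidone, a log2 ratio of -0.45 (-0.49 to -0.40) that did not reach the threshold of -0.5. The antisense genes 4921517D16Rik and Gm49579 had 45 and 31 UMIs in the saline pool. They were at -0.06 (-0.63 to 0.52) and 0.61 (-0.02 to 1.26), and both intervals included 0. Tmem30c and Col8a1, the neighbours of Cmss1, were at -0.02 and 0.12. Cmss1 itself was at -1.89. It was chosen among the lowest genes of this contrast. Filip1l and Col8a1, which reached 10 CPM, thus could not lie below it. Without TMM factors every log2 ratio is 0.11 higher, which puts Limd1, 4921517D16Rik and Tmem30c above 0, and the whole interval of Gm49579 as well.

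Gm47162 before Lars2, Esp38 after Gm42418 and Gm21748 after Gm47283 had 0 to 3 UMIs in each pool and are named only.

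**Figure D4:**
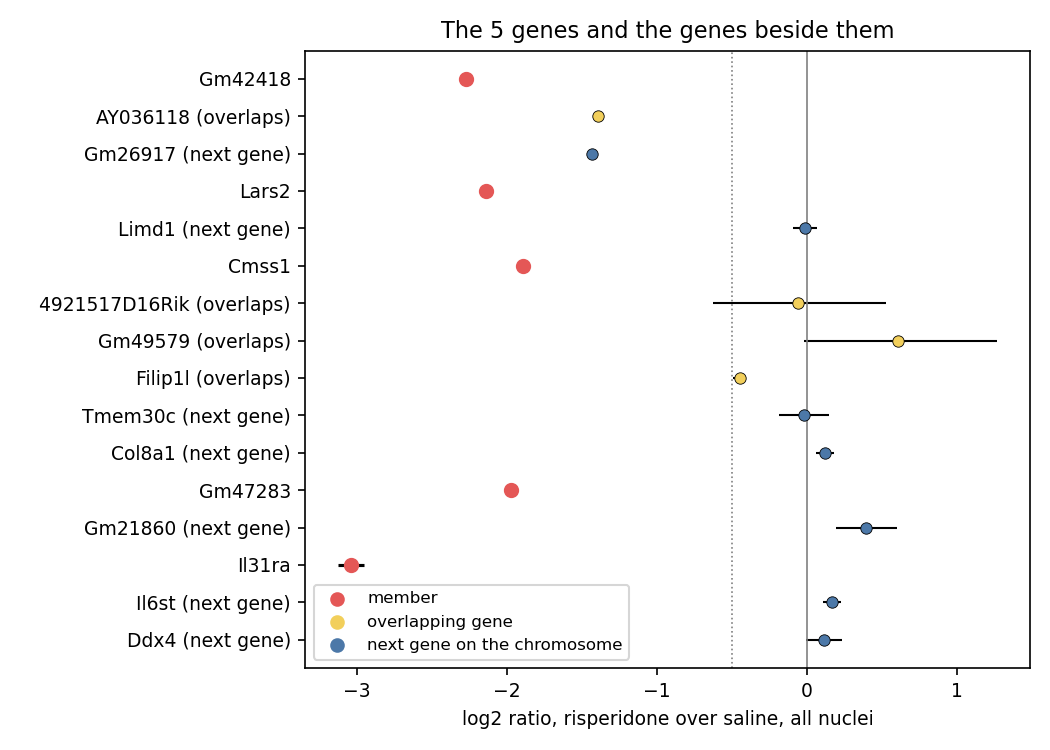
Log2 ratio of risperidone to saline over all nuclei (horizontal axis) for the 5 members and for the genes that overlap them or lie next to them with at least 20 saline UMIs; points are pool ratios and bars exact counting intervals. The members lie between -3.04 and -1.89, AY036118 and Gm26917 at -1.39 and -1.44, and the genes beside the other 4 members between -0.45 and 0.61.

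The other genes of the members' pathways are read against the 7.86% of all tested genes called lower and the 3.03% called higher with TMM factors, a balance that turns over to 281 lower and 481 higher genes without them. Of 16 mitochondrial aminoacyl-tRNA synthetases besides Lars2, 8 reached 10 CPM, and 0 of these were called lower and 0 higher, with a median log2 ratio of 0.07 against -0.05 for all genes tested. Fars2 and Rars2, the phenylalanyl and arginyl enzymes, had the highest levels of the list. Fars2 was at 235 and 237 CPM in saline and 202 and 203 CPM in risperidone, a log2 ratio of -0.34 (-0.36 to -0.33), and Rars2 was at 41.8 and 42.4 against 59.8 and 58.5 CPM, a log2 ratio of 0.37 (0.34 to 0.41).

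Of 32 genes of pre-rRNA processing besides Cmss1, 14 reached 10 CPM, 1 was called lower and 1 higher, and the median was 0.01. Nop56, a core protein of the box C/D particles that methylate rRNA, was the gene called lower, with 57.5 and 57.4 CPM in saline and 43.4 and 42.9 CPM in risperidone, a log2 ratio of -0.53 (-0.56 to -0.49). Wdr36, a protein of the small subunit processome, was higher at 10.6 and 10.1 against 16.5 and 15.9 CPM, a log2 ratio of 0.54. Nol10, second to Nop56 in level, was at 0.02.

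For the interleukin-6 type receptors and their signalling, 9 of 14 genes reached 10 CPM, 1 was called lower and 0 higher, and the median was 0.02. Cntfr, the receptor of ciliary neurotrophic factor, was lower, with 30.6 and 31.8 CPM in saline and 21.0 and 21.1 CPM in risperidone, a log2 ratio of -0.68 (-0.73 to -0.64). Jak1, the kinase with the highest level of the list, was at -0.08, and Jak2 was at 0.41. Osmr, the chain that pairs with Il31ra, was under 1 CPM in all 4 lanes. Without TMM factors Nop56 no longer reached -0.5, Utp18 of the pre-rRNA list and Jak2 reached 0.5, and Jak1 lay above 0. The lowest value among the tested genes of the 3 lists was the -0.68 of Cntfr. The members were chosen on this contrast and are its lowest genes, so no tested gene of a list could lie below them.

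Female and male nuclei of the pools could be separated, because each pool combined both sexes. A nucleus with Xist and none of 4 Y-linked genes was taken as female and the reverse as male, which gave 11127 and 11722 female and 5299 and 5484 male nuclei in saline and 12791 and 11360 female and 4806 and 4543 male nuclei in risperidone. Nuclei with UMIs of both kinds or of neither were left unsexed. The lanes held 29533, 29981, 25696 and 23283 nuclei used, so many were unsexed. Nuclei called female outnumbered those called male in every lane, although each pool held as many males as females. A call needs a UMI of Xist or of a Y-linked gene, so these counts do not give the share of each sex. All 5 members were lower in risperidone in both sexes, a description, since these nuclei are among those on which the members were chosen. Gm42418 was at -2.29 in female and -2.10 in male nuclei, Lars2 at -2.20 and -1.91, Cmss1 at -1.93 and -1.67 and Il31ra at -3.07 and -2.81. The background of the rule was 9.74% in female and 7.12% in male nuclei.

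Gm47283 had the widest gap between the sexes, at -2.19 (-2.22 to -2.17) in female and -1.60 (-1.64 to -1.57) in male nuclei. In saline, female nuclei held 455 and 447 CPM and male nuclei 368 and 357 CPM, and in risperidone female nuclei held 109 and 105 CPM and male nuclei 126 and 124 CPM. The sex with the higher level was thus female in both saline lanes and male in both risperidone lanes. The annotated locus is on chromosome Y, and female nuclei held UMIs of this gene at a level like that of male nuclei.

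The order of the sexes for Gm47283 was the same within a band of depth. In nuclei of 3000 to 6000 UMIs, female nuclei held 1.21 times (1.16 to 1.25) and 1.17 times (1.13 to 1.22) the level of male nuclei in saline and 0.855 times (0.798 to 0.916) and 0.901 times (0.814 to 0.998) in risperidone. For Gm42418 the same quotient was 1.07 and 1.05 in saline and 1.01 and 1.03 in risperidone. Mice of 1 sex within a pool cannot be told apart, so the spread between mice is unknown.

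**Figure D5:**
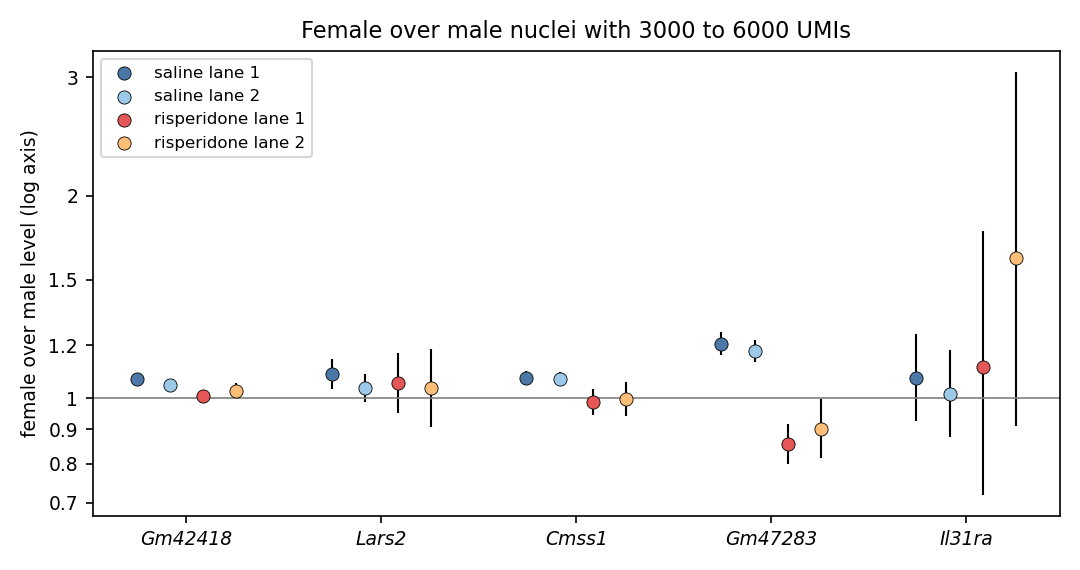
Level in female nuclei over level in male nuclei (vertical axis, log scale) for each member, in nuclei of 3000 to 6000 UMIs; points are lanes and bars exact counting intervals at 95% confidence. Gm47283 lies above 1 in both saline lanes and below 1 in both risperidone lanes, while the lanes of Lars2 lie between 1.04 and 1.09 and those of Il31ra have wide bars.

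Among glutamatergic nuclei of 3000 to 4000 UMIs, the spread of counts between nuclei was wider than counting alone gives for Gm42418 and close to it for the sparse members. The variance divided by the mean was 3.33 and 5.14 for Gm42418 in saline and 1.77 and 6.39 in risperidone, over 2378, 2417, 1113 and 421 nuclei. It was between 0.937 and 1.37 for Lars2, between 1.16 and 2.00 for Cmss1, between 1.19 and 1.62 for Gm47283 and between 0.985 and 1.06 for Il31ra. The middle 90% of saline lane 1 nuclei held 11 to 37 UMIs of Gm42418, and that of risperidone lane 1 held 1 to 10.

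Correlations between members across these nuclei were weak and are given as a description, since the nuclei of a lane share a library. The coefficient between Gm42418 and Cmss1 was 0.26 and 0.24 in saline and 0.13 and 0.27 in risperidone. Between Gm42418 and Gm26917 it was 0.34 and 0.28 against 0.09 and 0.13, and between Gm42418 and Gm47283 it was at most 0.11 in any lane. Gm42418 and the summed mitochondrial UMIs gave 0.06 and 0.17 in saline and 0.21 and 0.69 in risperidone. The 0.69 rests on 421 nuclei of risperidone lane 2, of which 56.8% held no mitochondrial UMI. The weight of single nuclei in this coefficient was not tested.

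The genes with the most similar levels across classes were sought for each member. Over 28 sums (7 classes in each of 4 lanes, log2 CPM with 1 added, centred within lane), the genes most like Gm42418 among the 7518 were Cmss1 (Pearson r = 0.97), AY036118 (0.95) and Gnai2 (0.94), an inhibitory G protein subunit. Those most like Lars2 were Cmss1 (0.95), Gm42418 (0.93) and Ifnar2 (0.92), and those most like Cmss1 were Gm42418 (0.97), Gnai2 (0.97) and Lars2 (0.95). For Gm47283 they were Glra3 (0.82), Tbc1d8 (0.79) and Dmxl2 (0.73), and for Il31ra they were Ppp3cc (0.86), Farsb (0.83) and Dhx40 (0.83). The points share classes, lanes and the difference of depth between glial and neuronal nuclei. Gm47283 and Il31ra had coefficients of at most 0.29 with any other member over these points. The points of Il31ra rest on few UMIs in small classes, with 0 in risperidone microglia and 4 in oligodendrocyte precursors of the risperidone pool, so its coefficients carry a large counting error.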

How the data were processed

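Per the submitters' processing notes and methods, reads were mapped by Cell Ranger 8.0.1 to its prebuilt mouse reference (GRCm38), with intronic reads included. What the authors deposited for each lane is a matrix of raw UMI counts for the barcodes called as nuclei. Per the labels the libraries were made with the GEM-X kit from DAPI-sorted nuclei. From these counts, nuclei showing 500 or more genes and no more than 5% mitochondrial UMIs were kept and UMIs were summed per lane and class. A nucleus was given a class with at least 3 UMIs from at least 2 markers of its list, at 6 times the lane's share or more and at least 2 times the marker UMIs of every other list. A glutamatergic nucleus needed 3 marker UMIs at 0.5 times the lane's share and no other class at 3 UMIs and 6 times its share. The thresholds for classes were chosen with marker levels in view. Doublets were not called, and nuclei with markers of several classes were left out of the classes. Classes with under 50 nuclei in a pool among all nuclei used were not reported. Classes that fell under 50 only within an alternative were kept in its count.

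Ratios are log2 ratios of summed UMIs scaled by edgeR 4.0.16 TMM factors (R 4.3.3), with DESeq2 1.42.0 size factors and plain CPM as alternatives. The summing and calling steps were tested on simulated data for the comparison of all nuclei, on 7492 genes that reached 10 CPM, where 42 of 42 genes lowered by 1 and 35 of 35 lowered by 2 on the log2 scale were called, as were 50 of 50 raised by 1 and 50 of 50 raised by 2, with 0 calls among 7315 unchanged genes. The simulated counts were Poisson draws around a common mean per gene, with no spread between lanes, pools or preparations. They check that the steps run correctly and cannot give the rate of false calls in the real data. Intervals are at 95% confidence, by the exact conditional binomial method for ratios and the Clopper-Pearson method for shares, and cover counting error only. Thinning used seed 1. Other computations used Python 3.11.15, numpy 2.4.6, scipy 1.17.1, pandas 2.3.3 and matplotlib 3.10.9. Positions and transcripts are from GENCODE vM21, which holds 32158 of the 32285 gene identifiers on its chromosomes, and promoters are from RefSeq (GRCm38.p6).

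Genes named are the 5 members, Gm26917 and AY036118, genes that overlap or adjoin a member, the 3 genes most like each member over classes, from each pathway list the genes past the threshold and the 2 with the highest level, and Malat1, the mitochondrial and the haemoglobin genes as sums. Gm15564, Taco1, mt-Atp6, Osmr and Utp18 were named outside this rule, after their values were seen. Members, lists and tests were chosen with earlier results of these data known.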

Additional observations from a re-analysis of the deposited data

Results flagged for a closer look

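Gm47283, Cmss1 and Lars2 were marked because, over all sexed nuclei, female nuclei lay above male nuclei in both saline lanes and below them in both risperidone lanes. The difference was not tested, since each condition is 1 pool. For Gm47283 the female level was 1.24 and 1.25 times the male level in the saline lanes and 0.865 and 0.847 times in the risperidone lanes, and its counting intervals exclude 1 in all 4 lanes. For Cmss1 the quotient was 1.13 and 1.17 in saline and 0.994 and 0.9998 in risperidone. For Lars2 it was 1.13 and 1.17 in saline and 0.959 and 0.988 in risperidone. The risperidone intervals of Cmss1 (0.969 to 1.02 and 0.977 to 1.02) and of Lars2 (0.907 to 1.02 and 0.940 to 1.04) include 1. In nuclei of 3000 to 6000 UMIs Lars2 no longer lay on opposite sides of 1, with 1.09 and 1.04 against 1.05 and 1.04, while Cmss1 stood at 1.07 and 1.07 against 0.989 and 0.999.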

How the results depend on the processing

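No paired analysis was possible because the results come from no test, each condition being 1 pool. No alternative reversed a member's direction. The log2 ratios, given in the order Gm42418, Lars2, Cmss1, Gm47283 and Il31ra, were -2.16, -2.02, -1.78, -1.86 and -2.92 with plain CPM and -2.28, -2.14, -1.90, -1.98 and -3.04 with DESeq2 size factors. They were -2.26, -2.10, -1.88, -1.96 and -3.03 in nuclei of at least 2000 UMIs, -2.16, -2.12, -1.80, -1.98 and -2.99 in those of 3000 to 6000 UMIs, and -2.28, -2.23, -1.93, -1.97 and -3.13 after thinning to 1500 UMIs. Nuclei with no mitochondrial UMI gave -2.24, -2.14, -1.84, -1.96 and -3.01, female nuclei -2.29, -2.20, -1.93, -2.19 and -3.07, male nuclei -2.10, -1.91, -1.67, -1.60 and -2.81, and equal weights for the classes -1.69, -1.81, -1.45, -1.94 and -2.97. For Il31ra the equal weights leave out microglia, which held 13 saline and 0 risperidone UMIs and so have no ratio. With 1 lane left out at a time the values ran from -2.33 to -2.23 for Gm42418, -2.21 to -2.08 for Lars2, -1.97 to -1.82 for Cmss1, -1.98 to -1.97 for Gm47283 and -3.17 to -2.94 for Il31ra. The cause of these shifts was not tested.

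The count of lower genes was 591, and 281 with plain CPM, 1170 with a minimum of 1 CPM and 236 with a minimum of 50 CPM. Plain CPM moved the median log2 ratio of all genes by 0.11 and the share of calls that were lower from 72.2% to 36.9%. After thinning, the pooled share of nuclei with a UMI went from 100% to 99.9% in saline and from 99.7% to 84.8% in risperidone for Gm42418, from 60.5% to 31.9% and from 33.1% to 8.87% for Lars2, from 95.4% to 75.5% and from 80.5% to 35.0% for Cmss1, from 71.0% to 43.8% and from 48.5% to 15.8% for Gm47283, and from 10.8% to 4.27% and from 2.53% to 0.545% for Il31ra. The number of classes called lower was 7 of 7 except for Lars2 in nuclei of 3000 to 6000 UMIs (6, with endothelial nuclei at -0.37 on 40 and 27 UMIs in 34 and 28 nuclei) and for Lars2, Cmss1 and Il31ra in nuclei with no mitochondrial UMI (6 each), where microglia, with 16 and 97 such nuclei, were at -0.37 for Lars2 and -0.49 for Cmss1 and endothelial nuclei held no UMI of Il31ra. Keeping all listed nuclei, or using only barcodes of 1 lane (added once the data had been seen), moved no member ratio over all nuclei beyond its counting interval and changed no count of classes. Requiring 5 marker UMIs for a class changed no count of classes. With 1 pool per condition the spread between animals is unknown, and Il31ra is limited by its 1277 risperidone UMIs.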
